A study of Mus musculus with 15 samples.

Results

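The 76 genes described here are named as proteins of the mitochondrial ribosome, and whether each belongs to it was not checked. They are all genes whose probe annotation symbol is Mrpl or Mrps followed by a number and at most 1 letter, on probe sets that carry exactly 1 symbol. They are 76 of 18194 genes with such a probe set, and all 76 passed the filter on dim signal that left 13629 genes to test. The rule uses the symbols alone, although it was set with earlier results of these data known. Where a gene had several probe sets, the one with the highest mean over all 15 arrays stood for it. Mouse XCR1+ dendritic cells were sorted from spleen and thymus and measured as bulk RNA on Affymetrix expression arrays, in 5 groups of 3 samples.

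The first group was spleen CCR7+ cells of mice that had received 10 µg of polyI:C, a synthetic double-stranded RNA, into the peritoneal cavity 18 h before the organs were taken. The other groups were spleen CCR7+, spleen CCR7-, thymus CCR7+ and thymus CCR7- cells of untreated mice. All cells were CD11c+ CD317- CD172a-. CCR7- cells, which the labels call immature, were also CD117+, and CCR7+ cells, called mature, were CD117-. CCR7 is the chemokine receptor that guides mature dendritic cells into T cell areas. XCR1, the receptor in the name of the cells, was not among the gates, and Xcr1 averaged 7.54 (log2) in polyI:C spleen CCR7+ cells, 8.03 in untreated spleen CCR7+ cells and 11.58 in spleen CCR7- cells, and 5.25 in thymus CCR7+ cells against 11.40 in thymus CCR7- cells. Whether CCR7+ and CCR7- cells are the same type of dendritic cell was not tested. The labels give no strain, age or sex, no number of mice behind a sample and no statement that replicates came from separate mice, so p-values measure only the spread between these samples. The titles of the spleen samples carry a set name that those of the thymus samples lack, and its meaning is not stated, so it cannot be told apart from the organ. No CCR7- cells of polyI:C-treated mice were among the samples.

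Mitochondrial ribosomes translate the few proteins that mitochondrial DNA encodes, all of them subunits of the respiratory chain or of ATP synthase. Their RNA comes from mitochondrial DNA, but every one of their proteins is encoded in the nucleus, made in the cytosol and imported. The small subunit decodes the messenger, and the large subunit joins amino acids and passes the new chain through a tunnel to the inner membrane. Some of the proteins have a counterpart in bacterial ribosomes, and others are found in mitochondria alone. Dendritic cells that mature are known to change how they use mitochondria and glycolysis.

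The values are log2 signals, so a difference of 1 is a 2-fold change, and they compare 1 gene between groups, never 1 gene with another. A gene passed the test when limma's Benjamini-Hochberg adjusted p over the 13629 genes was under 0.05. Array medians lay between 4.86 and 5.0. One library stood apart in RNA quality, replicate 1 of untreated spleen CCR7+ cells. Its Gapdh signal at the end of the transcript exceeded that at its start by 5.22, against 3.45 to 3.61 in its fellow replicates. The main counts that rest on this library are given with and without it. The median within-group SD of the 76 genes was 0.40 in that group and 0.18 to 0.24 in the others. This spread was not that of replicate 1 alone: the median deviation of the 76 genes from the group mean was 0.18 in replicate 1, 0.05 in replicate 2 and -0.27 in replicate 3. Markers of other cells also differed between groups. The mean of 7 T lineage genes was 4.69 to 4.79 in polyI:C spleen CCR7+ cells, 4.65 to 4.78 in untreated spleen CCR7+ cells and 4.45 to 4.63 in spleen CCR7- cells, and 6.29 to 7.38 in thymus CCR7+ cells against 5.17 to 6.03 in thymus CCR7- cells. The mean of 4 B cell genes was 5.78 to 6.42 in polyI:C spleen CCR7+ cells, 6.90 to 8.10 in untreated spleen CCR7+ cells and 5.80 to 6.21 in spleen CCR7- cells, and 5.70 to 7.31 in thymus CCR7+ cells against 5.19 to 5.62 in thymus CCR7- cells. The mean of 11 XCR1+ dendritic cell genes was 8.88 to 9.39 in polyI:C spleen CCR7+ cells, 9.34 to 10.46 in untreated spleen CCR7+ cells and 11.33 to 11.49 in spleen CCR7- cells, and 8.31 to 8.59 in thymus CCR7+ cells against 10.87 to 11.01 in thymus CCR7- cells. This list did not move as one. Batf3 went the other way, with 9.61, 10.36 and 9.56 in the spleen groups in that order and 10.18 against 9.25 in thymus. Flt3 had 10.66, 10.76 and 11.15 in spleen and 10.95 against 10.79 in thymus. Zbtb46 had 9.74, 9.31 and 9.81 in spleen and 9.23 against 9.23 in thymus. The other genes of the list were lower in every CCR7+ group. The mean of 4 macrophage and monocyte genes, all of them above the filter value in every group, was 5.70 to 7.08 in polyI:C spleen CCR7+ cells, 7.02 to 7.71 in untreated spleen CCR7+ cells and 7.77 to 8.43 in spleen CCR7- cells, and 6.12 to 7.05 in thymus CCR7+ cells against 7.47 to 7.80 in thymus CCR7- cells, so it was lower in the same groups as most of the genes described here. Among these, Lyz2 averaged 6.46 in polyI:C spleen CCR7+ cells, 8.90 in untreated spleen CCR7+ cells and 10.89 in spleen CCR7- cells. In the same order Csf1r averaged 8.05, 8.77 and 9.59 and Adgre1 5.37, 6.45 and 6.83. Fcgr1 went the other way, with 5.38, 5.02 and 4.94. The mean of 2 granulocyte genes was 4.77 to 5.41 in polyI:C spleen CCR7+ cells, 3.59 to 4.62 in untreated spleen CCR7+ cells and 3.59 to 3.77 in spleen CCR7- cells. In these sorted populations fewer cells of a type and less RNA per cell cannot be told apart, and the part of other cells in the results below was not tested.

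**Figure D1:**
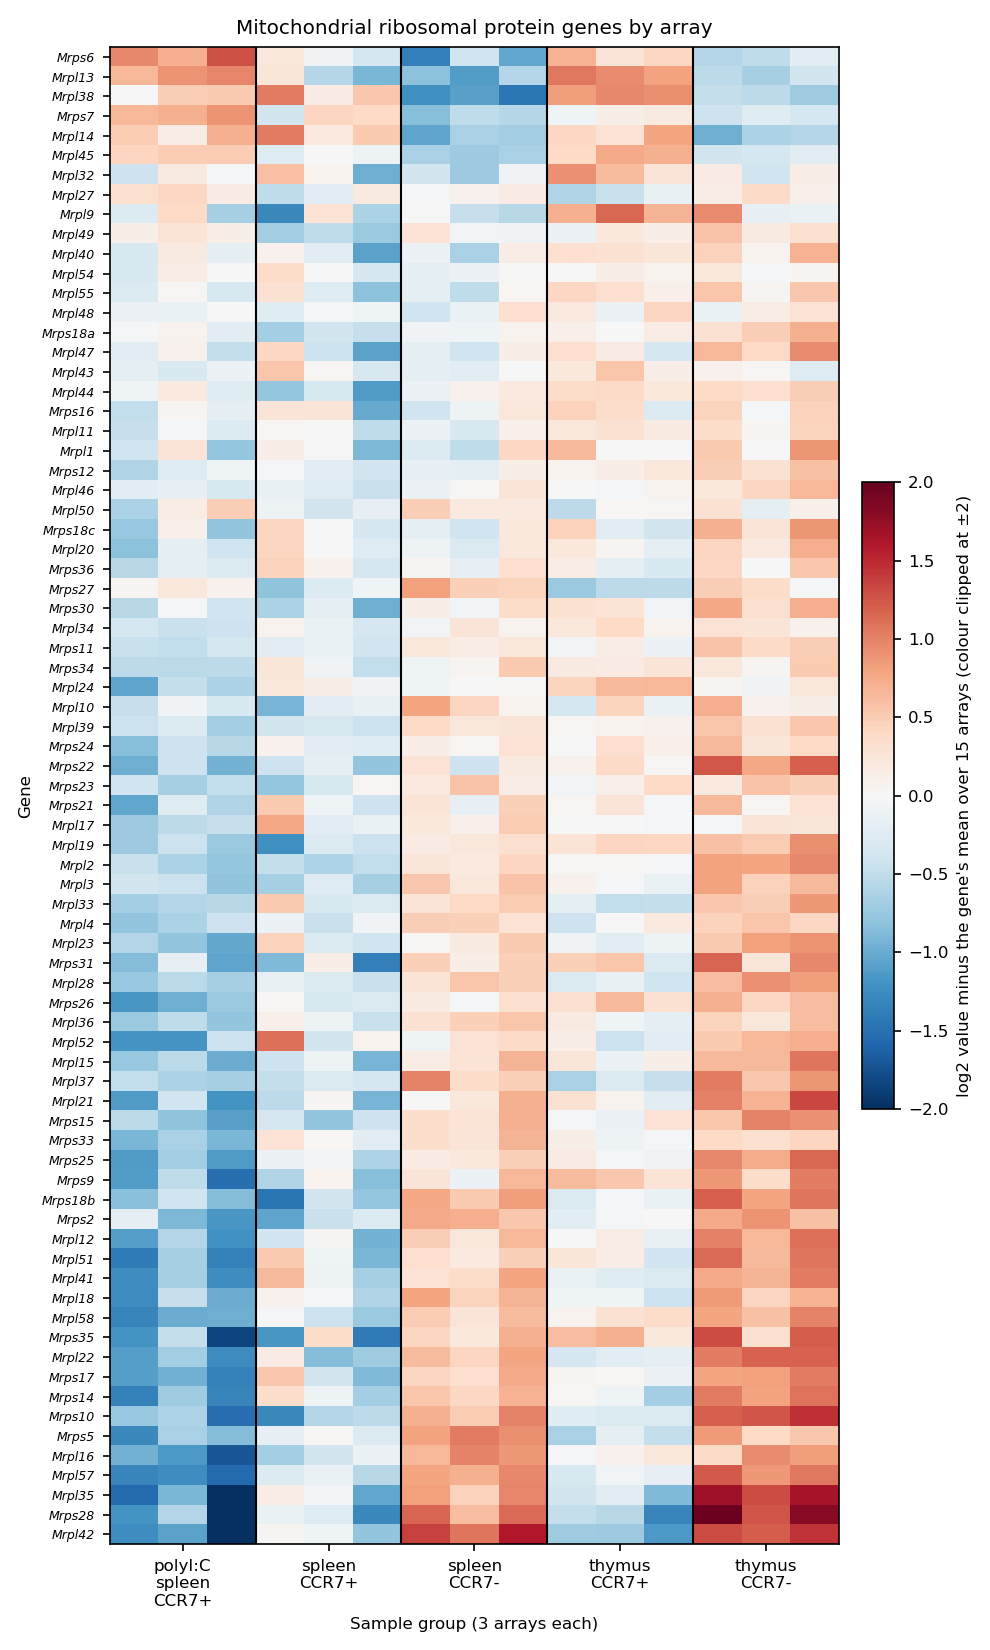
Each row is 1 of the 76 genes and each column 1 array, in 5 groups of 3; colour is the log2 value minus the gene's mean over the 15 arrays, clipped at 2 either way. Most rows run from blue in the CCR7+ groups to red in the CCR7- groups, and the 6 rows at the top (Mrps6 to Mrpl45) run the other way.

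Most of the mitochondrial ribosomal protein genes that changed on maturation were lower in mature cells, in thymus and spleen alike. In thymus CCR7+ cells 36 of 76 genes were lower and 6 higher than in thymus CCR7- cells, and 34 did not pass (limma). Of all genes tested, 20.4% were lower and 16.8% higher in the same comparison. In untreated spleen CCR7+ cells 37 of 76 genes were lower and 5 higher than in spleen CCR7- cells, against 24.1% lower and 12.3% higher over all genes. Without replicate 1 of untreated spleen CCR7+ cells the counts were again 37 lower and 5 higher, against 20.4% lower and 11.9% higher over all genes. The median log2 difference of the 76 genes was -0.43 in thymus, against -0.06 over all genes. In spleen it was -0.51, against -0.03 over all genes. It was -0.60 without that replicate and -0.40 without replicate 3 of untreated spleen CCR7+ cells, the ends of the range on leaving out each array.

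The genes that were lower in the organs largely coincided, as they also did over all genes. Of the 36 genes lower in thymus and the 37 lower in spleen, 29 were lower in both, 80.6% of the thymus list and 78.4% of the spleen list. Over all genes tested, 2202 were lower in both, 79% of the thymus list and 66.9% of the spleen list. Without replicate 1 of untreated spleen CCR7+ cells 32 members were lower in both organs, 27 of them among the 29, and 2143 of all genes. The organs' comparisons share no arrays, but they used the same estimate of the spread. Same-numbered thymus and spleen samples also deviated together, at correlations of 0.52 to 0.57 in CCR7- and 0.42 to 0.59 in untreated CCR7+ cells. All 33 members that passed in both organs had the same direction in both, and so did all 37 that passed in both without that replicate. The share of all genes with the same direction was not counted, so this does not set the members apart. A test of the thymus change minus the spleen change passed for 0 of 76 genes in limma, against 1.79% of all genes with a higher and 1.39% with a lower thymus change. At an unadjusted p under 0.05 it had 3 of 76 members, 3.95%, against 15.5% of all genes. Without replicate 1 of untreated spleen CCR7+ cells Mrpl13 passed, and without replicate 2 Mrpl44 passed (0.91, adjusted p = 0.0397, limma).

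**Figure D2:**
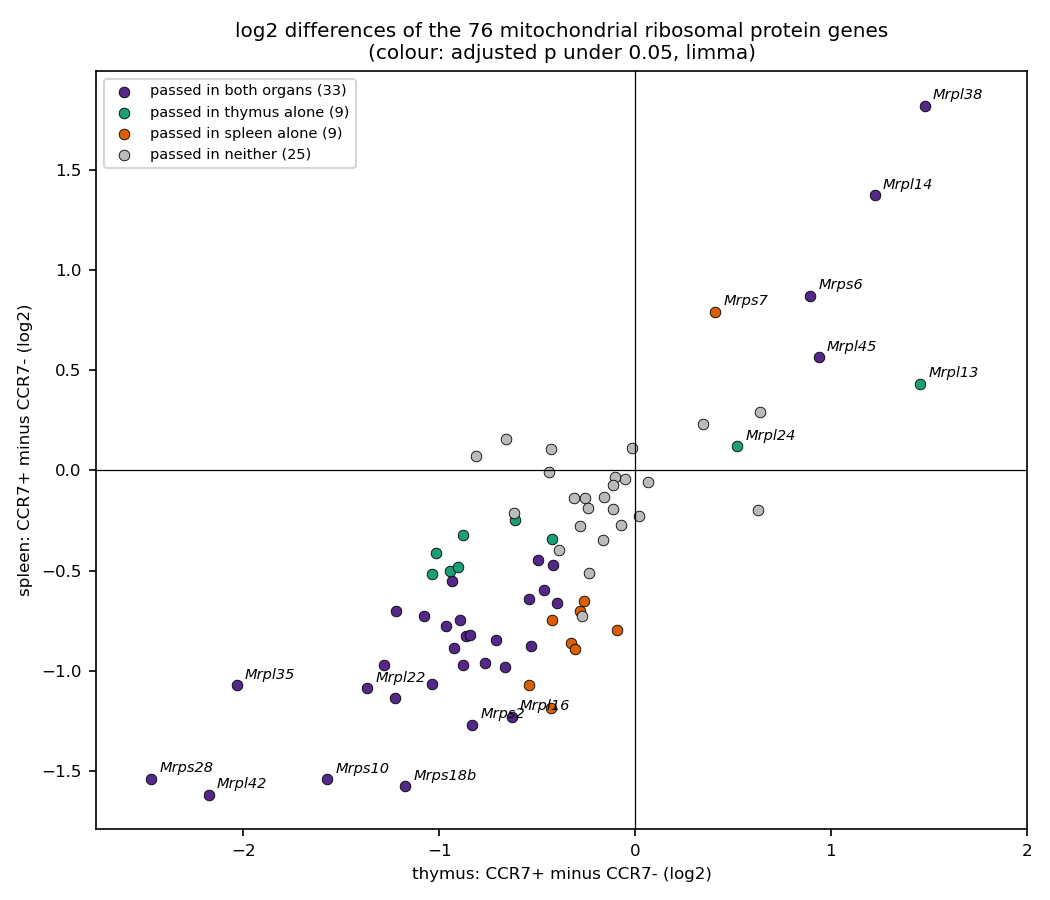
Each point is 1 of the 76 genes, with the CCR7+ minus CCR7- log2 difference of thymus on the x axis and that of untreated spleen on the y axis; colour tells in which organ the adjusted p was under 0.05. The 33 genes that passed in both organs lie at the lower left (29) and the upper right (4).

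The widest falls concerned proteins of both subunits. Mrpl42, a large-subunit protein without a bacterial counterpart, had log2 values of 9.57, 9.56 and 9.14 in thymus CCR7+ cells, against 11.58, 11.49 and 11.73 in thymus CCR7- cells. In spleen it had 10.33, 10.19 and 9.49 in CCR7+ cells, against 11.65, 11.34 and 11.87 in CCR7- cells. No CCR7+ sample reached the lowest CCR7- sample of its organ. The log2 difference was -2.18 ± 0.29 (SE) in thymus (adjusted p = 3.24e-05, limma) and -1.62 ± 0.29 in spleen (adjusted p = 0.00056, limma). Mrpl35, a large-subunit protein that bacteria share, had 8.35, 8.51 and 7.83 in thymus CCR7+ cells, against 10.41, 10.01 and 10.36 in thymus CCR7- cells. In spleen it had 8.86, 8.66 and 7.67 in CCR7+ cells, against 9.53, 9.18 and 9.69 in CCR7- cells. The groups were apart in both organs, and the difference was -2.03 ± 0.32 in thymus (adjusted p = 0.000138, limma) and -1.07 ± 0.32 in spleen (adjusted p = 0.0156, limma). The spleen call of Mrpl35 ended without replicate 3 of spleen CCR7- cells (-0.96, adjusted p = 0.0583, limma) and without replicate 3 of spleen CCR7+ cells (-0.71, adjusted p = 0.0744, limma).

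Among small-subunit genes Mrps28 and Mrps10 fell furthest in thymus. Mrps28 had 6.89, 6.81 and 6.02 in thymus CCR7+ cells, against 9.33, 8.62 and 9.19 in thymus CCR7- cells. It had 7.22, 7.10 and 6.07 in spleen CCR7+ cells, against 7.98 to 8.54 in spleen CCR7- cells. Its log2 difference was -2.47 ± 0.39 (SE) in thymus, or 5.54-fold, and -1.54 ± 0.39 in spleen. Mrps10, which sits in the head of the small subunit, had 7.09, 7.05 and 7.06 in thymus CCR7+ cells, against 8.53, 8.59 and 8.80 in thymus CCR7- cells. It had 6.04, 6.75 and 6.81 in spleen CCR7+ cells, against 8.05, 7.84 and 8.33 in spleen CCR7- cells. Its differences were close in the organs, -1.57 ± 0.24 in thymus and -1.54 ± 0.24 in spleen, with adjusted p = 0.000119 and 0.000211 (limma).

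Further large-subunit genes fell in both organs. Mrpl22, whose bacterial counterpart lines the tunnel of the new chain, had 8.29, 8.42 and 8.44 in thymus CCR7+ cells, against 9.65, 9.81 and 9.80 in thymus CCR7- cells, and its log2 difference was -1.37 ± 0.23 (SE) in thymus and -1.09 ± 0.23 in spleen. Mrpl57, found in mitochondria alone, had 8.0, 8.27 and 8.16 in thymus CCR7+ cells, against 9.55, 9.18 and 9.37 in thymus CCR7- cells, and its difference was -1.23 ± 0.15 in thymus and -1.14 ± 0.15 in spleen. In both genes the thymus groups did not overlap. Mrpl28 fell by 1.08 in thymus and Mrpl37, a mitochondria-specific protein, by 1.28. In spleen Mrpl16, whose bacterial counterpart contacts transfer RNA, fell by 1.23, with 8.52, 8.84 and 9.08 in CCR7+ cells, against 9.86, 10.19 and 10.07 in CCR7- cells. Mrps2 fell by 1.27 in spleen and Mrps14, a protein of the head of the small subunit, by 1.22 in thymus. Mrps35 passed in spleen with -1.19 (adjusted p = 0.0427, limma), but its CCR7+ values of 6.52, 8.06 and 6.27 overlapped its CCR7- values of 8.12, 7.90 and 8.41, and its call ended without any 1 of 5 of the 6 arrays (adjusted p up to 0.169, limma).

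The 3 Mrps18 genes, paralogs of 1 bacterial small-subunit protein, did not move alike. Mrps18b had 7.80, 8.06 and 7.96 in thymus CCR7+ cells, against 9.29, 8.88 and 9.17 in thymus CCR7- cells. In spleen it had 6.64, 7.72 and 7.32 in CCR7+ cells, against 8.86, 8.61 and 8.94 in CCR7- cells, and its log2 difference was -1.17 ± 0.23 (SE) in thymus and -1.58 ± 0.23 in spleen. Mrps18a, which structures place in the large subunit, passed with smaller falls of 0.42 in thymus and 0.47 in spleen. Mrps18c did not pass in thymus (-0.66, adjusted p = 0.0978, limma) or spleen (0.16, adjusted p = 0.723, limma). The differences between the paralogs' changes were not tested.

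Of the 76 genes, 67 had 1 or more promoter windows in the RefSeq table for the mouse build GRCm38.p6, 73 windows in all, each of 300 bases around the start and mostly upstream of it. The windows were searched on both strands for the letters of motifs known from nuclear genes of mitochondrial proteins, and the windows of 4 of the genes with the widest falls and of 1 gene that rose, Mrpl45, are shown with their matches in capitals. Mrpl42 (chr10:95501900-95502199, minus strand) and Mrpl35 (chr6:71823735-71824034, minus strand) hold the YY1 letters AANATGGCG. Mrpl57 (chr14:57825989-57826288, plus strand) and Mrpl22 (chr11:58171414-58171713, plus strand) each hold the NRF1 core GCGCNTGCG and the ETS letters CCGGAAG. Mrpl45 (chr11:97315466-97315765, plus strand) holds the NRF1 core at 3 places.
Mrpl42: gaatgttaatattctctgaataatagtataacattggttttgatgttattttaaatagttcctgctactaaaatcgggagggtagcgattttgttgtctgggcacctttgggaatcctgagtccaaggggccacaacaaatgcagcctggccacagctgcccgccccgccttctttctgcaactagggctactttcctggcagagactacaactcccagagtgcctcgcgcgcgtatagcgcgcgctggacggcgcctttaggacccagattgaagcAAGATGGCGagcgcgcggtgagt
Mrpl35: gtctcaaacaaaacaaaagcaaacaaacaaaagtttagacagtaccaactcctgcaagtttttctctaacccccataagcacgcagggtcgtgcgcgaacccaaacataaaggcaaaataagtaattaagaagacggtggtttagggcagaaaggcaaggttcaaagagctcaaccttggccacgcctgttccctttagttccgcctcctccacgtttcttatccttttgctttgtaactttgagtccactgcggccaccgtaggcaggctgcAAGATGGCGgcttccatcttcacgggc
Mrpl57: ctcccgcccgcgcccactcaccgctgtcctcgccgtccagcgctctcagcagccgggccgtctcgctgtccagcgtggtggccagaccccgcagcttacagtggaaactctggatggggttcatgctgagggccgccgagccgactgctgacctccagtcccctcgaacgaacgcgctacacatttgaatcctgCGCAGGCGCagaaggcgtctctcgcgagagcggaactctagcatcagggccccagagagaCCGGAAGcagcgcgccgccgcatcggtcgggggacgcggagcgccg
Mrpl22: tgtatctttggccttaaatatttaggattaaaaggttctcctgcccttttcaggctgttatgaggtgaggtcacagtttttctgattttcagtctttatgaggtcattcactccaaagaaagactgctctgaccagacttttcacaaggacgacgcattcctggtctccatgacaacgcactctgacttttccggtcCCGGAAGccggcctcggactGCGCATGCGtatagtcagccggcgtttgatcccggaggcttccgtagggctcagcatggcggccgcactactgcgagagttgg
Mrpl45: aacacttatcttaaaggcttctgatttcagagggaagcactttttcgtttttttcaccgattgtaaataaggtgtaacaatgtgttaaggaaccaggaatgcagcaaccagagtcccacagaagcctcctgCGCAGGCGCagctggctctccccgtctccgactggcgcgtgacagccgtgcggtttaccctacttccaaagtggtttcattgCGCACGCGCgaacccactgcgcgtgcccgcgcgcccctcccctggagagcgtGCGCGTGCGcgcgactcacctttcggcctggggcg

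The NRF1 core was in 17 of the 73 member windows, 23.3%, against 6.31% of all 32851 windows of the table and 8.61% of those of protein-coding genes. The ETS letters were in 34.2% of member windows, against 8.86% of all and 11.6% of protein-coding windows. The YY1 letters were in 15.1%, against 2.38% and 3.12%. They contain ATGG, so a match near the start can also hold a start codon. The E-box CACGTG, a site of Myc among others, was in 9.59% of member windows, against 7.15% of all windows. The YY1 letters were in 6 of 26 windows of the 24 genes of the table that were lower in thymus, spleen and polyI:C CCR7+ cells, in 0 of 5 windows of genes that rose in at least 1 of these comparisons, and in 0 of 19 windows of genes that passed in none. In the same 3 classes the NRF1 core was in 5 of 26, 3 of 5 and 3 of 19 windows, the ETS letters in 7 of 26, 0 of 5 and 5 of 19, and the E-box in 5 of 26, 0 of 5 and 2 of 19. A match describes the letters and shows neither binding nor a cause, and these windows are too few to set the classes apart.

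**Figure D3:**
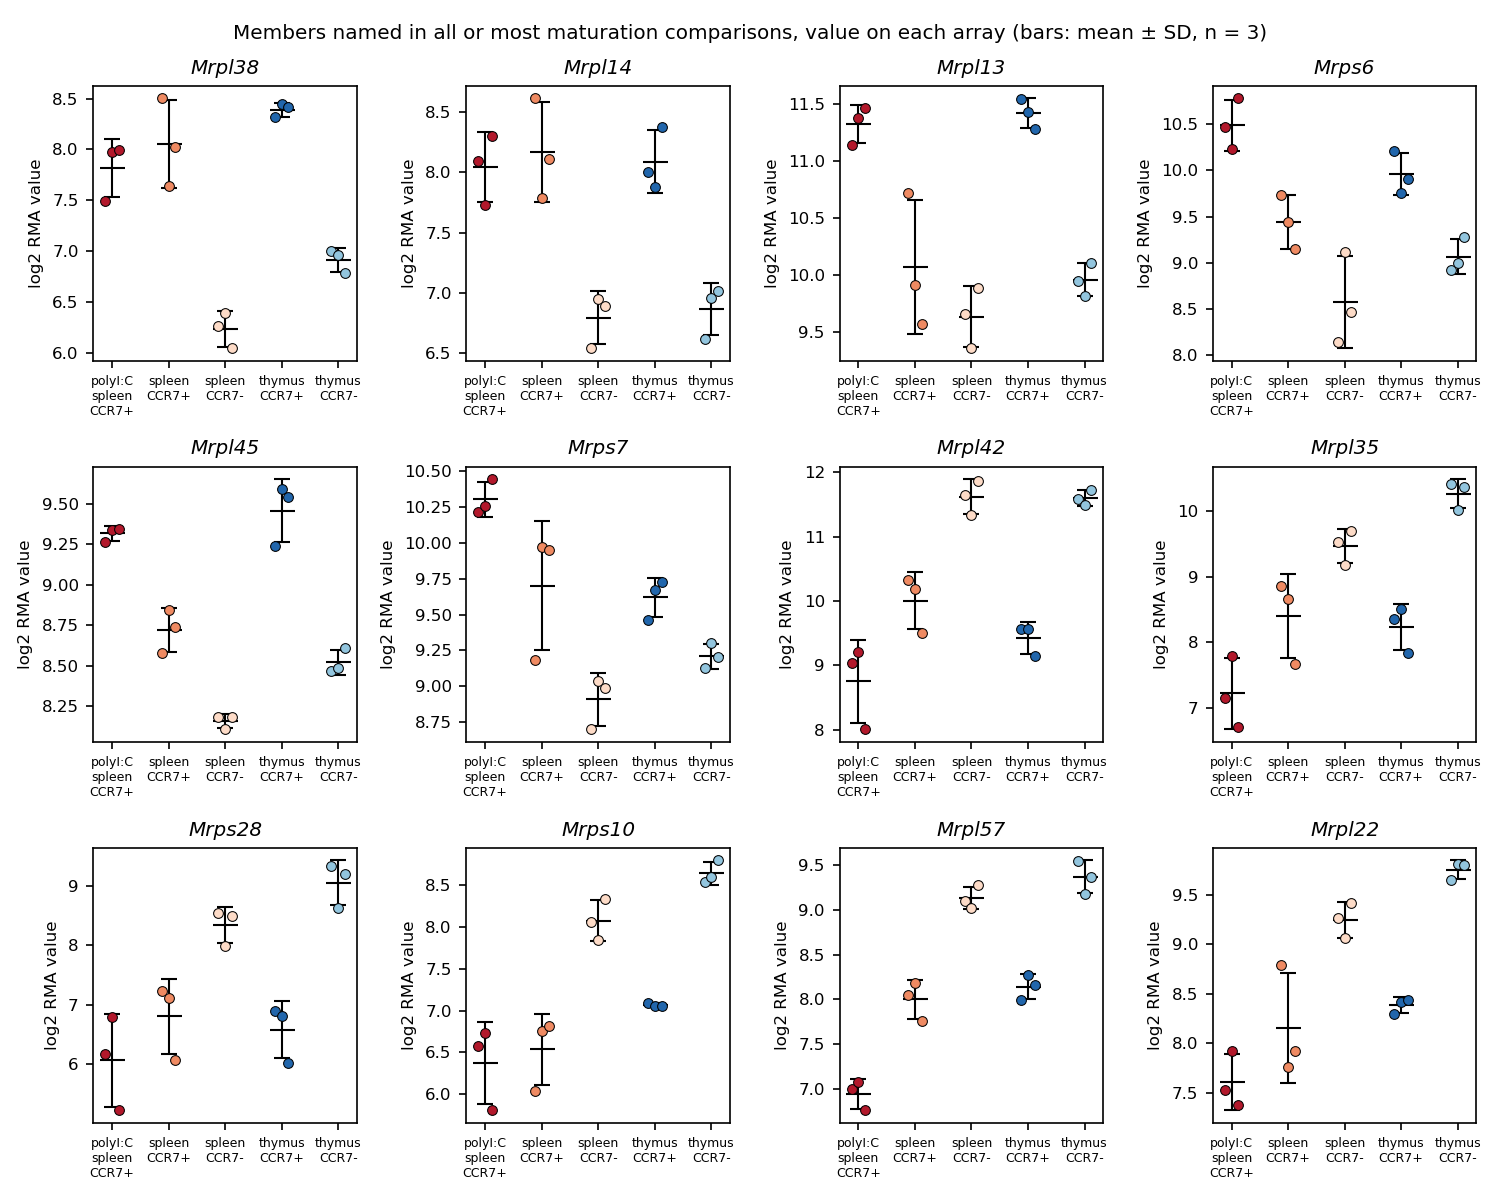
Each panel is 1 gene and each point the log2 value on 1 array; bars give the mean and SD of the 3 arrays of a group. Mrpl38, Mrpl14, Mrpl13, Mrps6, Mrpl45 and Mrps7 have higher means in every CCR7+ group than in the CCR7- group of the same organ, and the 6 genes from Mrpl42 to Mrpl22 have lower ones.

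A small set of mitochondrial ribosomal protein genes rose in mature cells, against the direction of the rest. Mrpl14, Mrpl38, Mrpl45 and Mrps6 rose in thymus, in untreated spleen and in polyI:C spleen CCR7+ cells. These 4 and Mrps7 did so without replicate 1 of untreated spleen CCR7+ cells. Mrpl14, a protein of the face of the large subunit that meets the small one, had 8.0, 7.88 and 8.38 in thymus CCR7+ cells, against 6.62, 6.96 and 7.01 in thymus CCR7- cells. In spleen it had 8.61, 7.79 and 8.11 in CCR7+ cells, against 6.54, 6.95 and 6.89 in CCR7- cells. The groups were apart in both organs, with log2 differences of 1.22 ± 0.22 (SE, adjusted p = 0.000521, limma) in thymus and 1.38 ± 0.22 (adjusted p = 0.000279, limma) in spleen. Mrpl45, which tethers the ribosome to the inner membrane at the mouth of the tunnel, had 9.24, 9.60 and 9.54 in thymus CCR7+ cells, against 8.47, 8.49 and 8.61 in thymus CCR7- cells. It had 8.58, 8.85 and 8.74 in spleen CCR7+ cells, against 8.18, 8.11 and 8.18 in spleen CCR7- cells. Its difference was 0.94 ± 0.13 in thymus and 0.56 ± 0.13 in spleen, and again no samples overlapped.

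Mrps6, a small-subunit protein whose bacterial counterpart pairs with the counterpart of Mrps18, had 10.21, 9.76 and 9.91 in thymus CCR7+ cells, against 8.92, 8.99 and 9.28 in thymus CCR7- cells. In spleen it had 9.74, 9.44 and 9.15 in CCR7+ cells, against 8.14, 9.11 and 8.46 in CCR7- cells, so the lowest CCR7+ sample lay just above the highest CCR7- sample. The log2 differences were 0.89 ± 0.24 (SE) in thymus and 0.87 ± 0.24 in spleen (adjusted p = 0.00834 and 0.0102, limma), and the spleen call ended without replicate 1 of spleen CCR7- cells (0.66, adjusted p = 0.0595, limma). Its 2 probe sets had the same sign, but the one used is of a kind that can read more than 1 transcript. Without that kind of probe set Mrps6 did not pass in spleen (0.45, adjusted p = 0.152, limma). Its spleen call also ended in a fit of the compared groups alone (adjusted p = 0.0512, limma). By RefSeq Mrps6 overlaps Slc5a3, Mrps7 overlaps Gga3 and Mif4gd, Mrpl14 overlaps Tmem63b and Mrpl57 overlaps Ska3, and shared signal was not tested. Mrpl38, a protein of the central protuberance, had 8.32, 8.45 and 8.41 in thymus CCR7+ cells, against 7.0, 6.96 and 6.78 in thymus CCR7- cells. Its difference was 1.48 ± 0.20 in thymus and 1.82 ± 0.20 in spleen, but it rests on 1 probe set of a kind that can read more than 1 transcript. Its other probe sets differed by -0.27 and 0.25 in thymus and by 0.05 and 0.17 in spleen, and without that kind of probe set the gene passed in neither organ (adjusted p = 0.287 and 0.478, limma).

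Mrpl13 and Mrpl24 rose in thymus without a call in untreated spleen, and Mrps7 rose in spleen without one in thymus. Mrpl13, a large-subunit protein that bacteria share, had 11.54, 11.43 and 11.28 in thymus CCR7+ cells, against 9.95, 9.82 and 10.11 in thymus CCR7- cells, a log2 difference of 1.46 ± 0.24 (SE, adjusted p = 0.000193, limma). Its 4 probe sets differed by 1.27 to 1.46 in thymus, and in spleen by 0.43, 0.60, 0.62 and 1.28. In spleen it had 10.71, 9.91 and 9.57 in CCR7+ cells, against 9.65, 9.36 and 9.89 in CCR7- cells, overlapping groups with a difference of 0.43 ± 0.24 (adjusted p = 0.177, limma). The test of thymus change minus spleen change gave 1.02 ± 0.33 for Mrpl13, with an adjusted p of 0.126 (limma), the smallest of the 76. Without replicate 1 of untreated spleen CCR7+ cells, the library that stood apart, it gave 1.35 with an adjusted p of 0.007 (limma), so the call depends on that array. By probe set this difference was 1.02, 0.83, 0.81 and -0.01, the last in the dimmest of the 4, so that probe set does not show a difference between the organs. Mrps7, which binds RNA in the head of the small subunit, had 9.18, 9.97 and 9.95 in spleen CCR7+ cells, against 8.70, 9.04 and 8.99 in spleen CCR7- cells, a difference of 0.79 ± 0.19 (adjusted p = 0.00452, limma). In thymus its difference was 0.41 ± 0.19 (adjusted p = 0.113, limma). Mrpl24, near the mouth of the tunnel, passed in thymus with 0.52 ± 0.16, a call that ended without replicate 2 of CCR7- cells or without replicate 2 or 3 of CCR7+ cells (adjusted p up to 0.0683, limma).

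After polyI:C the gap to CCR7- cells covered more of the mitochondrial ribosome. In polyI:C spleen CCR7+ cells 47 of 76 genes were lower and 6 higher than in spleen CCR7- cells of untreated mice (limma), against 28% lower and 18.4% higher over all genes. The median log2 difference was -0.82, against 0.02 over all genes. Of the genes that passed, 38 were at least 2-fold apart. The share of all genes at that size is not given beside it, so the 38 does not set these genes apart. This comparison joins maturation and treatment, and it shares its CCR7- arrays with the untreated spleen comparison. Of 27 small-subunit genes 20 were lower and 2 higher, and of 49 large-subunit genes 27 were lower and 4 higher. Of 45 genes with a bacterial counterpart 31 were lower, and of 31 mitochondria-specific genes 16. Differences between these classes were not tested.

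Mrpl42 had 9.04, 9.20 and 8.01 in polyI:C spleen CCR7+ cells, against 11.65, 11.34 and 11.87 in spleen CCR7- cells, a log2 difference of -2.87 ± 0.29 (SE, adjusted p = 1.67e-06, limma), or 7.33-fold. Mrpl57 had 6.99, 7.08 and 6.76 in polyI:C spleen CCR7+ cells, against 9.10, 9.03 and 9.28 in spleen CCR7- cells, a difference of -2.19 ± 0.15 (adjusted p = 5.44e-08, limma). Mrps28 fell by 2.28, Mrpl35 by 2.25 and Mrpl16 by 2.11. For each of these 5 genes the highest polyI:C sample lay below the lowest CCR7- sample. Mrps5, a small-subunit protein near the path by which the messenger enters, had 4.91, 5.56 and 5.34 in polyI:C spleen CCR7+ cells, against 7.02, 7.25 and 7.15 in spleen CCR7- cells, and fell by 1.87. That fall rests on 1 probe set with a mean of 6.21. The other probe sets of Mrps5, with means of 6.08, 6.07, 5.76 and 5.16, differed by 0.03, -0.70, -0.40 and 0.06. Mrps10 fell by 1.70, Mrps14 by 1.69, Mrps17 by 1.65 and Mrpl22 by 1.64. Mrps6 rose by 1.92, with 10.47, 10.23 and 10.78 in polyI:C spleen CCR7+ cells, against 8.14, 9.11 and 8.46 in spleen CCR7- cells. Mrpl13 rose by 1.69, Mrps7 by 1.39, Mrpl14 by 1.25 and Mrpl45 by 1.16, while the 1.59 of Mrpl38 rests on the single probe set named above. Mrpl24 was lower here (-0.69 ± 0.16, adjusted p = 0.00201, limma) although it had passed as higher in thymus.

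Across the 3 maturation comparisons 27 genes were lower each time, and 32 without replicate 1 of untreated spleen CCR7+ cells, 26 of them among the 27. The share of all genes with this pattern, or with those below, was not counted. The untreated spleen and polyI:C comparisons share their CCR7- arrays, so the counts say nothing on whether the patterns are particular to these genes. The 27 were Mrpl2, Mrpl3, Mrpl4, Mrpl12, Mrpl15, Mrpl16, Mrpl18, Mrpl21, Mrpl22, Mrpl28, Mrpl35, Mrpl36, Mrpl37, Mrpl39, Mrpl42, Mrpl57 and Mrpl58 of the large subunit, and Mrps2, Mrps5, Mrps10, Mrps11, Mrps14, Mrps15, Mrps17, Mrps18b, Mrps25 and Mrps28 of the small subunit. They include Mrpl12, the stalk protein that recruits translation factors, and Mrpl58, which frees stalled ribosomes. Mrpl21 is the one of the 27 that was not lower each time without that replicate. A further 9 genes passed as lower after polyI:C and in neither untreated organ: Mrpl17, Mrpl34, Mrpl52, Mrps9, Mrps21, Mrps24, Mrps26, Mrps33 and Mrps34. Without that replicate there were 10 such genes, 6 of them among the 9. In none of the 7 comparisons did 15 genes pass: Mrpl1, Mrpl11, Mrpl20, Mrpl32, Mrpl40, Mrpl43, Mrpl47, Mrpl48, Mrpl50, Mrpl54, Mrpl55, Mrps12, Mrps16, Mrps18c and Mrps36. Without that replicate 11 passed in none, 10 of them among the 15. These counts rest on 1 probe set per gene. Mrpl50 had a second one nearly as bright, with a mean of 7.89 against 7.92. That probe set differed by -0.96 in thymus, -1.35 in spleen and 0.04 after polyI:C. In polyI:C against untreated spleen CCR7+ cells it differed by 1.39. Mrps12, whose bacterial counterpart lies at the decoding site, differed by -0.31 in thymus, -0.14 in spleen and -0.24 after polyI:C.

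Mature spleen cells after polyI:C also differed from untreated mature spleen cells in some of these genes, by counts that depended on single arrays. In polyI:C spleen CCR7+ cells 19 of 76 genes were lower and 7 higher than in untreated spleen CCR7+ cells (limma), against 9.66% lower and 8.58% higher over all genes. The median log2 difference was -0.28, against 0.01 over all genes. Without replicate 1 of untreated spleen CCR7+ cells 9 genes were lower and 5 higher, against 11.4% and 7.12% over all genes. That is 14 of 76, near the 18.5% of all genes that passed in either direction. The median was then -0.25, against 0.02 over all genes. The count of 26 became 13 without replicate 1 and 14 without replicate 3 of polyI:C spleen CCR7+ cells, and 5 in a fit of these 2 groups alone. In these 3 fits 14.9%, 12.5% and 7.93% of all genes passed in either direction, so 13 of 76 is near the share of all genes and 5 of 76 below it.

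The falls in this comparison were widest in large-subunit genes. Mrpl42 had 9.04, 9.20 and 8.01 in polyI:C spleen CCR7+ cells, against 10.33, 10.19 and 9.49 in untreated spleen CCR7+ cells, a log2 difference of -1.26 ± 0.29 (SE, adjusted p = 0.00728, limma). Mrpl57 had 6.99, 7.08 and 6.76 in polyI:C spleen CCR7+ cells, against 8.05, 8.18 and 7.76 in untreated spleen CCR7+ cells, a difference of -1.05 ± 0.15 (adjusted p = 0.000269, limma), though its second probe set differed by 0.07. Mrps33, a mitochondria-specific small-subunit protein, had 9.77, 10.04 and 9.77 in polyI:C spleen CCR7+ cells, against 10.97, 10.73 and 10.46 in untreated spleen CCR7+ cells, and fell by 0.86 (adjusted p = 0.00155, limma). In these 3 genes the groups did not overlap. Mrpl24 fell by 0.82. Mrpl52 (-1.20), Mrpl35 (-1.18), Mrpl41 (-1.01), Mrps14 (-0.99), Mrpl51 (-0.98), Mrps17 (-0.90) and Mrpl16 (-0.88) passed as well, and each of these calls ended when 1 or more single arrays were left out, with adjusted p up to 0.148 for Mrpl51 (limma). The second probe set of Mrpl35 differed by -0.05 here, and with its probe sets averaged the gene did not pass (-0.41, adjusted p = 0.134, limma).

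Among the genes that rose, Mrpl13 had 11.13, 11.38 and 11.46 in polyI:C spleen CCR7+ cells, against 10.71, 9.91 and 9.57 in untreated spleen CCR7+ cells, a log2 difference of 1.26 ± 0.24 (SE, adjusted p = 0.00188, limma), while the dimmest of its 4 probe sets differed by -0.07. Mrps6 had 10.47, 10.23 and 10.78 in polyI:C spleen CCR7+ cells, against 9.74, 9.44 and 9.15 in untreated spleen CCR7+ cells, a difference of 1.05 ± 0.24 (adjusted p = 0.00708, limma). Mrpl49, found in mitochondria alone, had 7.78, 7.94 and 7.78 in polyI:C spleen CCR7+ cells, against 6.97, 7.15 and 6.92 in untreated spleen CCR7+ cells, and rose by 0.82 (adjusted p = 0.00172, limma). Mrpl45 rose by 0.60, with 9.27, 9.34 and 9.35 in polyI:C spleen CCR7+ cells, against 8.58, 8.85 and 8.74 in untreated spleen CCR7+ cells. The groups of all 4 genes were apart. Mrpl44 (0.70), Mrps7 (0.60) and Mrps18a (0.44) passed too, and each lost its call on leaving out 1 of several arrays, with adjusted p up to 0.0666 for Mrpl44, 0.14 for Mrps7 and 0.123 for Mrps18a (limma). Mrpl14 did not pass, at -0.13.

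Between organs few of the genes passed. In thymus CCR7- cells 4 of 76 genes, 5.26%, were higher and 0 lower than in spleen CCR7- cells (limma), near the 4.92% higher and beside the 3.24% lower over all genes. An unadjusted p under 0.05 was found for 22 members, 28.9%, against 18.4% of all genes. The count of 4 became 1 without replicate 3 of thymus CCR7- cells or without replicate 2 of spleen CCR7- cells, and 2 without replicate 1 of spleen CCR7- cells. The median log2 difference was 0.36, against 0.04 over all genes. Samples with the same replicate number deviated together in these groups. With the number as a block in the fit of all groups 3 genes were higher and 0 lower, against 5.18% higher and 3.63% lower over all genes. A fit of these 2 groups alone gave 6 higher and 0 lower, against 5.76% and 4.47%, and the block within that fit gave 36 higher and 0 lower, against 13.8% and 10.1%. So the 36 comes from the block and the choice of groups together. Mrps22, a mitochondria-specific small-subunit protein, had 8.70, 8.23 and 8.64 in thymus CCR7- cells, against 7.74, 7.03 and 7.63 in spleen CCR7- cells, a difference of 1.05 ± 0.23 (SE, adjusted p = 0.00876, limma). Mrps25 (0.66), Mrpl2 (0.56) and Mrps18a (0.53) passed as well, of which Mrps25 did not pass with the block in the fit of all groups (adjusted p = 0.0538, limma), and each lost its call on leaving out 1 of several arrays, with adjusted p up to 0.165, 0.0575 and 0.145 (limma).

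In thymus CCR7+ cells 13 of 76 genes were higher and 0 lower than in untreated spleen CCR7+ cells (limma), so 17.1% were higher, against 8.71% higher and 3.47% lower over all genes. An unadjusted p under 0.05 was found for 31 members, 40.8%, against 26% of all genes. There were 12 higher and 0 lower without replicate 1 of untreated spleen CCR7+ cells, against 6.63% and 3.99% over all genes. Without replicate 2 of thymus CCR7+ cells 7 passed, and without replicate 3 of thymus CCR7+ or of spleen CCR7+ cells 8, against 7.15%, 8.48% and 10.5% of all genes in either direction. In a fit of these 2 groups alone 4 were higher and 0 lower, against 3.9% and 1.99% over all genes. Same-numbered samples deviated together here too. The replicate block gave 11 higher and 0 lower in the fit of all groups, against 9.27% and 3.75% over all genes. Within these 2 groups it gave 13 higher and 1 lower, against 10.7% and 4.14%. The median log2 difference was 0.34, against 0.04 over all genes. Mrpl13 had 11.54, 11.43 and 11.28 in thymus CCR7+ cells, against 10.71, 9.91 and 9.57 in spleen CCR7+ cells, a difference of 1.35 ± 0.24 (SE, adjusted p = 0.00168, limma), while the dimmest of its 4 probe sets differed by -0.30. Mrpl44, which carries the fold of an RNA-cutting enzyme, had 9.83, 9.85 and 9.67 in thymus CCR7+ cells, against 8.69, 9.14 and 8.33 in spleen CCR7+ cells, a difference of 1.07 ± 0.18 (adjusted p = 0.00158, limma). Mrpl19 had 8.45, 8.60 and 8.59 in thymus CCR7+ cells, against 6.94, 7.88 and 7.74 in spleen CCR7+ cells, a difference of 1.02 ± 0.21 (adjusted p = 0.00506, limma). No samples overlapped in these 3 genes. Mrpl9 (1.39) and Mrps9 (0.94) passed with calls that ended in most of the fits that left out 1 array (adjusted p up to 0.125 and 0.151, limma), and Mrps9 did not pass with the block in the fit of all groups (adjusted p = 0.0623, limma). The mean of the T lineage genes given above was also higher in thymus than in spleen. The mean of 3 epithelial markers was 6.95 to 7.15 in thymus CCR7+ cells, against 5.22 to 5.85 in spleen CCR7+ cells, and 7.05 to 7.49 in thymus CCR7- cells, against 5.15 to 5.40 in spleen CCR7- cells. These markers differed unevenly. Epcam averaged 8.17 against 6.39 in CCR7+ and 10.44 against 6.41 in CCR7- cells. Krt8 averaged 7.24 against 4.82 and 5.80 against 4.44, and Krt5 5.82 against 5.30 and 5.48 against 4.92. The part of such cells in these differences was not tested.

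A check on probe sets was possible for 42 genes with 2 or more. Of the 17 that passed in thymus and whose second brightest probe set lay above the filter value, 16 had the same sign in both probe sets, and Mrpl21 did not. In spleen this held for 15 of 18, with Mrpl21, Mrps5 and Mrps31 opposed, and in polyI:C against spleen CCR7- cells for 22 of 25, with Mrpl34, Mrps5 and Mrps31 opposed. It held for 12 of 14 in polyI:C against untreated spleen CCR7+ cells, with Mrpl57 and Mrps5 opposed, and for 7 of 8 in thymus against spleen CCR7+ cells, with Mrps26 opposed. The 34 genes with 1 probe set had 16 lower and 3 higher in thymus, and the 42 with more had 20 lower and 3 higher. Mrpl35's second probe set differed by -1.01 in thymus and -0.89 in spleen, while the second probe set of Mrpl42 was dim, with a mean of 2.68.

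Most lists of genes that build and serve mitochondrial ribosomes held more genes that were lower than higher on maturation, as all genes together did. Of all genes tested 20.4% were lower and 16.8% higher in thymus, 24.1% and 12.3% in untreated spleen, and 28% and 18.4% for polyI:C against spleen CCR7- cells. Of 23 assembly factors 8 were lower and 3 higher in thymus CCR7+ cells than in CCR7- cells, 11 and 1 in untreated spleen, and 13 and 2 for polyI:C against spleen CCR7- cells, so that 34.8%, 47.8% and 56.5% were lower. Of 17 mitochondrial aminoacyl-tRNA synthetases and partners, which charge transfer RNA, 9, 11 and 11 were lower (52.9%, 64.7% and 64.7%) and 1, 0 and 1 higher in the same 3 comparisons. Of 12 translation factors 4, 7 and 7 were lower and 1, 2 and 2 higher. Of 9 genes of mitochondrial DNA upkeep and transcription 3, 4 and 6 were lower and 0 higher. Of 77 respiratory chain subunits 21, 13 and 42 were lower (27.3%, 16.9% and 54.5%) and 0, 2 and 1 higher. Of 46 cytosolic ribosomal protein genes 6, 1 and 14 were lower (13%, 2.17% and 30.4%) and 4, 2 and 1 higher, with medians of 0.01, 0.11 and -0.22 (log2). Of 8 regulators of mitochondrial biogenesis 2, 1 and 2 were lower and 1, 2 and 2 higher, and of 5 proteins of mitochondrial ribosomes named outside the Mrp series 1, 2 and 5 were lower and 0 higher. For polyI:C against untreated spleen CCR7+ cells 15 of 46 cytosolic ribosomal protein genes and 19 of 77 respiratory chain subunits were lower and 1 of each was higher, with medians of -0.35 and -0.34, against 9.66% lower and 8.58% higher over all genes. These counts became 7 and 12 lower and 1 and 1 higher without replicate 1 of untreated spleen CCR7+ cells. Over all genes 11.4% were then lower and 7.12% higher. For untreated spleen without that replicate 9 assembly factors, 8 synthetases and partners, 6 translation factors, 4 genes of mitochondrial DNA upkeep, 22 respiratory chain subunits, 1 cytosolic ribosomal protein gene, 1 regulator and 2 proteins outside the Mrp series were lower, and 1, 0, 1, 0, 0, 2, 2 and 0 higher. Over all genes 20.4% were lower and 11.9% higher in untreated spleen without that replicate. The lists were not tested against each other.

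**Figure D4:**
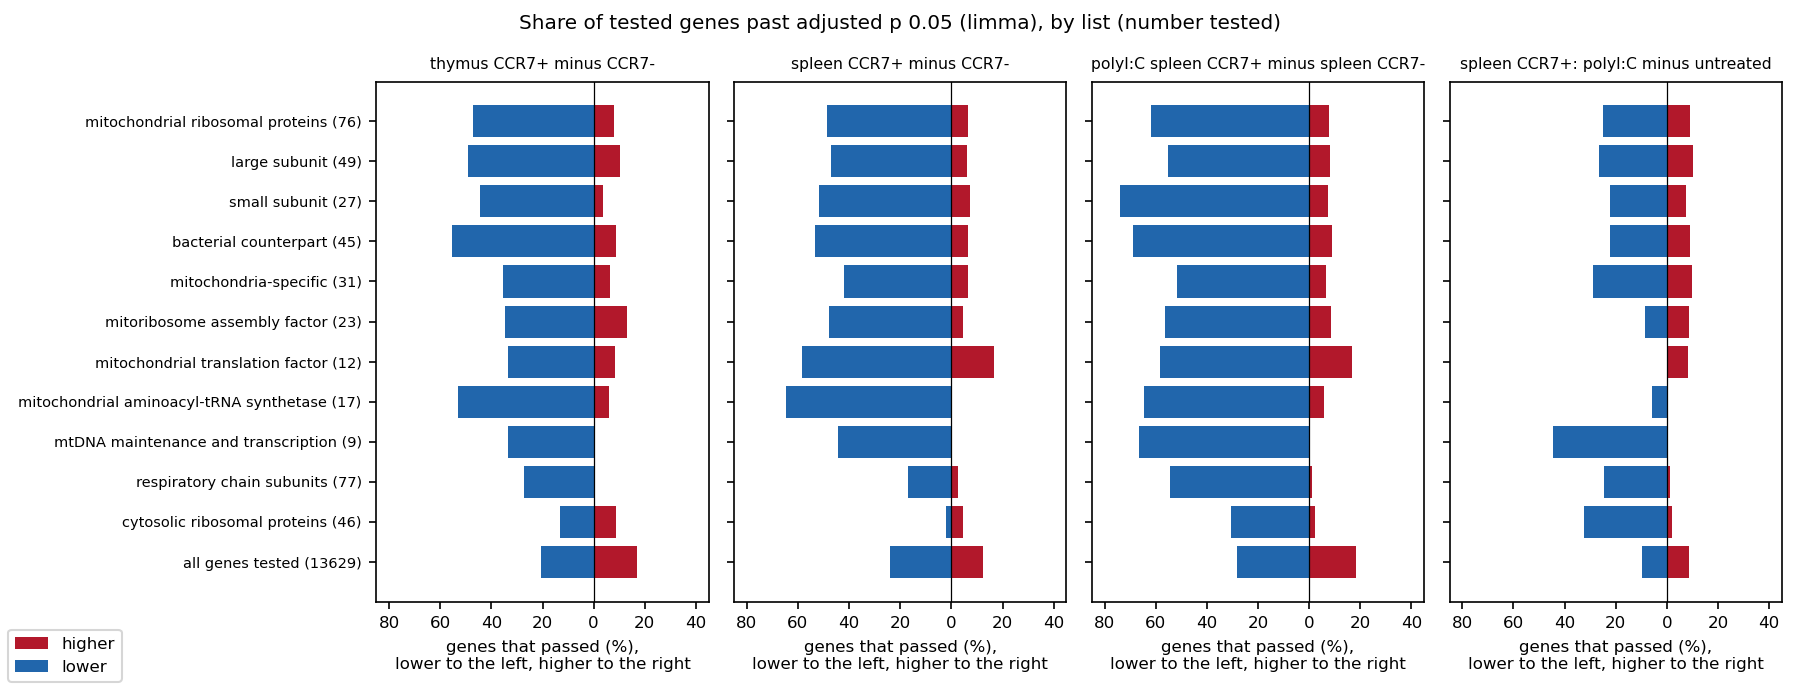
Bars give the share of each list's tested genes with an adjusted p under 0.05 (limma), lower to the left in blue and higher to the right in red, in 4 comparisons; the number tested is in brackets. The mitochondrial ribosomal protein genes reach 47.4%, 48.7%, 61.8% and 25% lower, against 20.4%, 24.1%, 28% and 9.66% of all genes.

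Single genes of these lists went as far as the ribosomal proteins, in both directions. Ptcd3, a small-subunit protein named outside the Mrp series, had 6.46, 6.87 and 6.61 in thymus CCR7+ cells, against 7.98, 7.81 and 7.93 in thymus CCR7- cells, and fell by 1.26 in thymus and 1.22 in spleen (log2). Noa1, a GTPase of assembly, fell by 1.91 in thymus. Fastkd2, an RNA-binding protein of large-subunit assembly, fell by 1.58 in thymus and 1.95 in spleen, and Tfb1m, which methylates small-subunit RNA, by 1.6 in spleen and 2.17 after polyI:C. Nsun4, a methyltransferase of ribosomal RNA that takes part in joining the subunits, rose instead. It had 10.49, 10.59 and 10.58 in polyI:C spleen CCR7+ cells, 8.95, 9.44 and 9.34 in untreated spleen CCR7+ cells and 7.60, 7.36 and 7.51 in spleen CCR7- cells, and rose by 3.06 ± 0.15 (SE) after polyI:C, 1.75 in untreated spleen and 1.04 in thymus. Mettl17, an assembly factor of the small subunit, rose by 1.39 in polyI:C against untreated spleen CCR7+ cells (adjusted p = 7.49e-05, limma).

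Mtif3, the initiation factor, was higher in every maturation comparison. It had 9.50, 10.01 and 9.97 in thymus CCR7+ cells, against 7.76, 7.45 and 7.61 in thymus CCR7- cells, a log2 difference of 2.22 ± 0.20 (SE, adjusted p = 1.07e-06, limma), with 1.40 in untreated spleen and 2.29 after polyI:C. Lrpprc, which stabilises mitochondrial messengers, fell by 1.80 in spleen and 2.68 after polyI:C, and its fall of 1.12 in thymus lost its call in 1 or more fits that left out 1 array (adjusted p up to 0.123, limma). Its partner Slirp rose by 1.17 after polyI:C. Qrsl1, which helps to make glutaminyl transfer RNA, fell by 1.99 in thymus, 1.57 in spleen and 2.54 after polyI:C. Tfb2m, needed to start transcription of mitochondrial DNA, had 5.91, 6.06 and 5.32 in polyI:C spleen CCR7+ cells, 7.25, 7.33 and 6.95 in untreated spleen CCR7+ cells and 8.55, 8.03 and 8.39 in spleen CCR7- cells. These 3 groups did not overlap, and Tfb2m fell by 2.56 against spleen CCR7- cells and by 1.41 against untreated spleen CCR7+ cells. Among regulators of mitochondrial biogenesis Myc fell by 2.27 in thymus and Pprc1 by 1.5 in thymus, 1.42 in spleen and 1.93 after polyI:C, while Gabpb1, a subunit of an ETS factor, rose by 0.99 in spleen and 1.55 after polyI:C and Yy1 by 0.51 in thymus.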

How the data were processed

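Total RNA of sorted mouse cells was measured on Affymetrix arrays from 40 ng of RNA after 2 rounds of cRNA amplification, per the labels' protocols. The deposited values are log2 signals that the authors made with RMA and the affy package, per the submitters' processing notes. Versions of both were not given in the sources used here, nor was the set of arrays normalised together. RMA gives no detection call, and it compresses changes near background.

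Of 45101 probe sets 34958 carried 1 symbol, 932 several and 9211 were not listed in the annotation. A gene was tested when 3 or more arrays exceeded 4.39, the 40th percentile of the whole table. Group means of all 15 arrays were fitted with limma 3.58.1 in R 4.3.3 (eBayes, 10 residual degrees of freedom), with Benjamini-Hochberg adjustment over 13629 genes. Exact tests of 3 against 3 samples cannot go below p = 0.1 and were not used.

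Members and lists were chosen with earlier results of these data known. Genes named were the 10 largest rises and falls that passed (5 between organs), the Mrps18 paralogs, members that passed in opposite directions, and up to 2 rises and 2 falls of each other list, of which a part is printed. The 27 genes, the 9 genes after polyI:C alone, Mrps12, and the genes named for opposed probe sets or for a count without 1 array were named for their count and not by that rule, and Mrpl12, Mrpl58 and Mrps12 were singled out after their values were seen.

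Replicate numbers come from the titles. Deviations from group means correlated at 0.52 to 0.57 between thymus and spleen CCR7- samples of the same number and at 0.42 to 0.59 between thymus and untreated spleen CCR7+ samples, and not in every pair elsewhere, so the comparisons between organs, fitted without a block, are also given with the number as a block. Alternatives were no filter, a filter at the 60th percentile, probe sets averaged per gene, other probe sets, repeated quantile normalisation and centring. Others were eBayes with trend and robust settings, compared groups only, the replicate block, and leaving out each array. Overlaps and list counts without 1 array, and the block within 2 groups, were added after seeing the data. The number of arrays limits the precision.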

Additional observations from a re-analysis of the deposited data

How the results depend on the processing

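Of 1093 settings run for the 73 named results, 989 left the call as it was. In 104 the call ended, 62 of them on leaving out 1 array. No direction changed, but many settings could not change it. Those of filter, eBayes, compared groups and block leave the log2 difference as it is. Leaving out 1 array cannot turn a difference between groups that do not overlap. The median log2 difference of polyI:C spleen CCR7+ against spleen CCR7- cells was -0.57 with probe sets averaged per gene, against -0.82. For polyI:C against untreated spleen CCR7+ cells 26 members passed, 17 without probe sets that can read more than 1 transcript, 5 in a fit of these groups alone and 13 to 30 on leaving out each array. For thymus against spleen CCR7- cells 4 passed, 2 with eBayes trend and robust settings, 1 to 3 on leaving out each array, and 36 with the replicate number as a block within these groups, an alternative chosen after seeing the data. For thymus against untreated spleen CCR7+ cells 13 passed, 4 in a fit of these groups alone and 7 to 15 on leaving out each array. For the thymus change minus the spleen change the count was 0 to 1 on leaving out each array. The counts on leaving out each array were 32 to 38 in thymus (42 with all arrays), 33 to 42 in spleen (42) and 49 to 54 for polyI:C against spleen CCR7- cells (53). With the replicate block in the fit of all groups the counts of the 7 comparisons were 41, 41, 53, 25, 3, 11 and 0. Fewer arrays leave fewer residual degrees of freedom; otherwise the cause was not tested. Signal near background limits what could be seen of dim probe sets.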

Other observations

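One gene of mitochondrial DNA, ND5, a subunit of respiratory complex I that mitochondrial ribosomes translate, had a probe set of its own in the table and was looked at after the other values were seen. ND5 had log2 values of 12.28, 12.19 and 12.54 in polyI:C spleen CCR7+ cells, 13.35, 13.16 and 13.46 in untreated spleen CCR7+ cells and 13.46, 13.29 and 13.36 in spleen CCR7- cells. The polyI:C samples lay below all others of the spleen. The log2 difference was -1.03 ± 0.17 (SE) against spleen CCR7- cells (adjusted p = 0.000129, limma) and -0.99 ± 0.17 against untreated spleen CCR7+ cells (adjusted p = 0.000821, limma). Between CCR7+ and CCR7- cells of untreated mice it was 0.03 in thymus (adjusted p = 0.917, limma) and -0.04 in spleen (adjusted p = 0.875, limma). The SE of 0.17 sets the size of change that these arrays could show for this gene.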
